A study of Homo sapiens with 12 samples.

Results

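Of the 512 genes in the count table whose symbol is ZNF followed by a number, 241 (47.1%) were expressed at a mean of 10 CPM or more (CPM, each count scaled to a library total of 1000000) over the 12 libraries, and these 241 genes are described here. The rule was a symbol of ZNF, a number and at most 1 letter, with each count divided by its library's total. It took levels only, so the levels of the members are a description and carry no test. Of the other ZNF genes, 143 averaged from 1 to under 10 CPM, 114 were above 0 and under 1 CPM, and 14 were at 0 in every library. The members just inside the threshold were ZNF805 at 10.1 CPM, ZNF226 at 10.3 and ZNF333 at 10.5. Just outside it were ZNF257 at 9.97 CPM, ZNF140 at 9.95 and ZNF747 at 9.87. In 203 members the mean was 10 CPM or more in each of the 4 groups. The other 38 passed the rule although at least 1 group mean was below it, so that they had to differ between groups, and counts over the 241 members are given as descriptions. Among the members named below, ZNF10, ZNF202, ZNF211, ZNF226, ZNF268, ZNF32, ZNF333, ZNF358, ZNF521, ZNF548, ZNF616, ZNF697, ZNF726 and ZNF792 are of this kind, and for them a fold change is not independent of the rule.

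The libraries came from K562, a human chronic myeloid leukemia line that carries BCR-ABL, and from K562/IM, its derivative made resistant to imatinib (IM) by stepwise exposure and kept in 5 µM of the drug. The groups were K562, K562 treated with 6 µM lycorine (K562+L), K562/IM, and K562/IM treated with 6 µM lycorine (K562/IM+L), with 3 libraries in each. Lycorine is an alkaloid of Amaryllidaceae plants, and the hours of exposure before sequencing are not given in the sources used here. K562/IM is a single resistant line, and nothing in the labels says that libraries of a group came from separate cultures, so that p-values measure the spread between libraries only.

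ZNF genes encode proteins with zinc fingers of the C2H2 kind, each a short loop held by 2 cysteines and 2 histidines around a zinc ion, and arrays of such fingers read DNA. The largest class carries a KRAB domain, which recruits TRIM28 and through it the histone methyltransferase SETDB1 and HP1 proteins to silence transposable elements and genes. Many KRAB genes lie in tandem clusters on chromosome 19, while ZNF genes without the domain include activators of promoters, RNA binding proteins and ribosome factors.

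Total counts were 75093844 to 107344598 per library, so that a gene at 10 CPM had about 751 counts in the smallest library. Among the marker genes, the 10 erythroid genes of K562 summed to between 5802 and 7884 CPM in K562. Their sum was 3981 to 4523 CPM in K562+L, 2900 to 3148 in K562/IM and 24714 to 33097 in libraries labelled K562/IM+L. HBG2 was the largest part in every group. Against the sum, mean HBE1 was higher in K562/IM than in K562 (544 and 97.6 CPM), as was NFE2 (140 and 129). In K562+L, TAL1 (99.3 against 72.6 CPM in K562) and KLF1 (174 against 139) were higher. The others of the list were lower than in K562 in each of these groups. MS4A1 was at 0, and CD14, MPO, CDH1 and CDH5 were at or near 0. EPCAM, KRT19 and LYZ were expressed in every library. The 4 lymphocyte markers summed to 23.8 to 25.4 CPM in K562/IM and to at most 3.50 CPM in the other groups, and the 4 stromal and endothelial markers to 19.3 to 24.3 and at most 0.796 CPM. ABCB1, the drug efflux pump, was at 21.9 to 25.8 CPM in K562/IM and 1.68 to 1.86 in K562, but 0.490 to 1.06 in those libraries. Every direction drawn from them therefore rests on their label, and the part of the marker differences in the results was not tested.

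Promoters are shown for the members with the largest called fold change in each direction of each comparison, except ZNF521, as the kind of sequence these genes start from. They are RefSeq windows of GRCh38.p14 from 250 bases before to 50 bases after the start, read 5′ to 3′ on the gene's strand. Capitals mark a GC box, spelled GGGCGG, the letters of the CCAAT box, or an ETS core on either strand, and adjoining motifs form 1 run of capitals. The ETS core searched is CCGGAAG. ZNF548 is at chr19:57389604-57389903 (+), ZNF792 at chr19:34964180-34964479 (-), ZNF697 at chr1:119648217-119648516 (-), ZNF726 at chr19:23914636-23914935 (+), ZNF431 at chr19:21141790-21142089 (+) and ZNF226 at chr19:44164850-44165149 (+).
ZNF548: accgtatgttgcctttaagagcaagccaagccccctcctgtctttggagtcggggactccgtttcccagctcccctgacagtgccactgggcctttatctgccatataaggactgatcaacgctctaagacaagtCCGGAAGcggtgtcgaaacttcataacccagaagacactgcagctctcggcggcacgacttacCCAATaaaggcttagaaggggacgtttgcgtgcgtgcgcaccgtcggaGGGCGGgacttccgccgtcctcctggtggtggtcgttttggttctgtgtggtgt
ZNF792: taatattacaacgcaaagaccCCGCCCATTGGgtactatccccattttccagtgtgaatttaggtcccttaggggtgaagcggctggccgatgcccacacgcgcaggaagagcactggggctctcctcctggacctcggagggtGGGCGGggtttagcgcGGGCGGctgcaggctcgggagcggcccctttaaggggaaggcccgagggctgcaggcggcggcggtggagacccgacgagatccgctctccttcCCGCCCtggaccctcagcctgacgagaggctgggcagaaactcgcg
ZNF697: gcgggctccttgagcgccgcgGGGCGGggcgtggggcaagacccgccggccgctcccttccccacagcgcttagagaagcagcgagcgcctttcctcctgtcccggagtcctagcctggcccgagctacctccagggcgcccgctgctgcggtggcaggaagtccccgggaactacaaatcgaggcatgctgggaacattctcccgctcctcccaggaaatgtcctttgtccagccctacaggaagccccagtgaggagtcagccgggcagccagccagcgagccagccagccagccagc
ZNF726: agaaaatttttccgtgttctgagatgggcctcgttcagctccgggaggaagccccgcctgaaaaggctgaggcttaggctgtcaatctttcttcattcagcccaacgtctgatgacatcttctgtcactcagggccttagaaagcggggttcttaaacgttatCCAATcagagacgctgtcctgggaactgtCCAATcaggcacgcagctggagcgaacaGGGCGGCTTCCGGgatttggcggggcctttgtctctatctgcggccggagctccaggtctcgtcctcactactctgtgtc
ZNF431: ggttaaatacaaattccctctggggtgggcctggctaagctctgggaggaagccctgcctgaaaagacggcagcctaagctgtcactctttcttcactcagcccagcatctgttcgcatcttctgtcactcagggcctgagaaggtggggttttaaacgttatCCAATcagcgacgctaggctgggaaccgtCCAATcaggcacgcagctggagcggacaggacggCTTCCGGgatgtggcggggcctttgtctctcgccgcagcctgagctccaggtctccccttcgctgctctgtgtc
ZNF226: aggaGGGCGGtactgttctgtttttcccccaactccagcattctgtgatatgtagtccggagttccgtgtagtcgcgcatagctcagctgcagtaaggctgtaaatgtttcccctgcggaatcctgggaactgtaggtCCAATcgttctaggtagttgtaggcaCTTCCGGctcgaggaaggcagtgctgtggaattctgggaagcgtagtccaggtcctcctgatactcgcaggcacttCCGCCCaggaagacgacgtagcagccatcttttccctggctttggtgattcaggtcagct

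The windows of ZNF726 and ZNF431 were alike, with 250 identical bases in 304 aligned columns (82.2% identity), while the other pairs of these 6 windows had 47.9% to 51.9% identity. Both hold 2 CCAAT boxes and an ETS core, and ZNF792 holds 4 GC boxes. A RefSeq promoter was found for 211 members. The ETS core was in 46.4% of them, in 56.0% of those with a KRAB motif and in 10.7% of all 27305 promoters. The GC box was in 68.2% of the members' promoters and in 44.6% of all. The CCAAT box was in 46.9% and 35.7%, and in 56.9% of those with a KRAB motif. TATAAA was in 4.27% of the members' promoters and in 12% of all. The CRE (TGACGTCA) was in 5.69% and 1.98%, and the E-box (CACGTG) in 7.11% and 7.43%. The median number of CpG was 23 in the members' promoters and 14 in all. These are matches of letters on both strands and not sites of binding. The 27305 promoters were not limited to expressed genes, as the members were. The shares therefore do not set ZNF genes apart from other expressed genes.

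The 241 members were all placed in GENCODE 29 (GRCh38), and 94 of them lay on chromosome 19. Of the 240 with a coding sequence that could be translated, 121 had a KRAB motif near the start of the protein and 119 did not, and 71 of the 121 were on chromosome 19. The motif is a match of letters, so that members without it may still include KRAB proteins. The median number of fingers was 12 with the KRAB motif and 7 without it. Per kilobase of transcript, the median level was 5.68 CPM with the motif and 9.38 CPM without it. The highest members on this scale were ZNF207 (119 CPM per kilobase), ZNF692 (55.4), ZNF593 (54.3), ZNF146 (51.7) and ZNF385A (48.7), none of which has a KRAB motif. ZNF207, also called BuGZ, binds the spindle checkpoint protein Bub3, ZNF593 takes part in the maturation of the large ribosomal subunit, and ZNF385A is a partner of p53.

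Together the members took 0.823% ± 0.088 (SD, n = 3) of the counts in K562, 1.01% ± 0.042 in K562+L, 1.10% ± 0.014 in K562/IM and 0.992% ± 0.105 in the libraries labelled K562/IM+L. On the CPM scale corrected by TMM, used for all levels from here on, their sum was 9245, 8578 and 7855 in the 3 K562 libraries. It was 10239, 9979 and 10833 in K562+L, 10100, 10129 and 9950 in K562/IM, and 9900, 9629 and 10889 in the libraries labelled K562/IM+L. Every K562 library was below every other library. The members with a KRAB motif summed to 2931 ± 298 in K562 (mean ± SD, n = 3), 3566 ± 165 in K562+L, 3663 ± 75 in K562/IM and 4116 ± 353 in the libraries labelled K562/IM+L. K562 had the lowest mean of the 4 groups for 92 members and the highest for 13. Within groups, the median coefficient of variation of a member was 11.8% in K562, 9.02% in K562+L, 5.07% in K562/IM and 10.8% in the libraries labelled K562/IM+L. Over all genes at 10 CPM or more it was 10.2%, 7.48%, 4.31% and 9.90%.

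**Figure D1:**
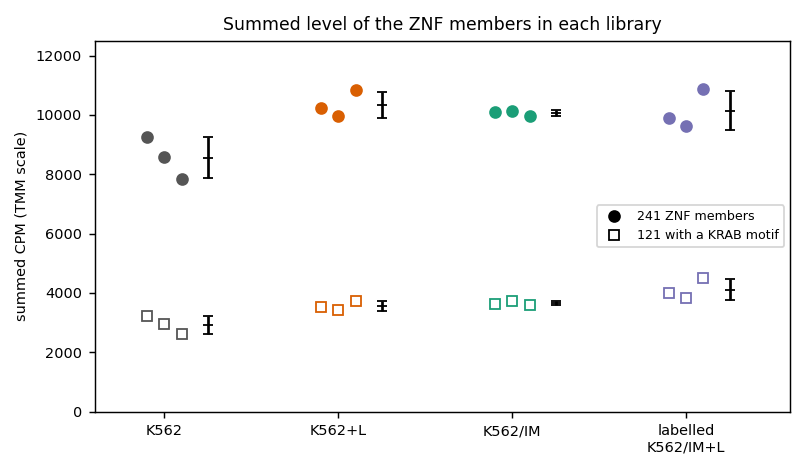
Summed TMM-scaled CPM of the 241 ZNF members (filled circles) and of the 121 with a KRAB motif (open squares) in each of 12 libraries by group, with the mean ± SD of 3 libraries in black. The 3 K562 libraries, at 9245, 8578 and 7855, sit below all others.

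Lycorine in K562 was associated with higher levels of more ZNF members than lower ones. By the quasi-likelihood test of edgeR, adjusted over all genes after Benjamini and Hochberg and called at an adjusted p under 0.05, 81 members were higher in K562+L than in K562, 20 were lower and 140 were not called. Of all 12927 genes tested, 18.2% were higher and 37.3% were called in either direction. Among genes at 10 CPM or more, 21.4% were higher, 20.8% lower and 42.2% called. The share of members called, 41.9%, was close to the last of these. The median log2 fold change of the members was 0.22, against 0.00 for all genes. Libraries did not overlap in 97 members that were higher and 31 that were lower, where 51.5% of all genes did not overlap. Most changes were small, since 8 members were higher and 1 lower by more than 1 on the log2 scale, against 2.38% and 4.01% of all genes. Among the 203 members at 10 CPM or more in every group those counts were 5 and 0. They were 114 and 231 among the 9336 genes tested at 10 CPM or more. The count of higher members fell to 48 without K562 replicate 2, to 51 without K562+L replicate 1 and to 51 without K562+L replicate 3. The count of lower members was 12 without K562 replicate 2 and 11 without K562+L replicate 1.

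Of the 6 named members that rose, ZNF75A is without a KRAB motif. ZNF548 was at 5.48, 3.6 and 3.32 CPM in K562 and at 12.3, 11.5 and 15.7 in K562+L. The lowest treated library was above the highest untreated one, and the log2 fold change was 1.67 (SE 0.22, adjusted p = 0.00146). ZNF268 (chr12:133181409-133214831), a KRAB protein with 24 fingers, was at 7.82, 8.31 and 6.87 CPM in K562 and at 20.1, 20.4 and 26 in K562+L. It rose 2.89-fold with no overlap (log2 1.53, SE 0.14, adjusted p = 0.00031). ZNF616 rose by 1.34 on the log2 scale, ZNF708 by 1.27, ZNF75A by 1.16 and ZNF429 by 1.15. ZNF548, ZNF268 and ZNF616 had a group mean under 10 CPM, so that their fold changes are not independent of the rule. ZNF75A has no KRAB motif in the transcript used and has exons of other genes on its opposite strand.

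The largest fall was in ZNF792, a KRAB gene. It was at 15.3, 14.6 and 13.4 CPM in K562 and at 6.12, 4.67 and 5.43 in K562+L, a 2.67-fold fall with no overlap (log2 -1.41, SE 0.13, adjusted p = 0.00041). ZNF706 fell by 0.89 on the log2 scale, from 89.3, 92.5 and 106 CPM to 50.7, 54.2 and 50.4. ZNF385A fell by 0.87, from 106, 121 and 120 CPM to 66.0, 65.6 and 58.1. ZNF76, a paralog of the promoter activator ZNF143, fell by 0.68, ZNF32 by 0.65 and ZNF695 by 0.60. Apart from ZNF792 and ZNF695, these members have no KRAB motif. ZNF792 and ZNF32 had a group mean under 10 CPM, so that their fold changes are not independent of the rule.

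Between the lines without lycorine, 94 members were higher in K562/IM than in K562, 21 were lower and 126 were not called by the same edgeR test. K562/IM was kept in 5 µM imatinib and K562 was not, so that resistance and the drug cannot be told apart. Of all 13406 genes tested, 30.1% were higher and 27.1% lower. Among genes at 10 CPM or more, 25.1% were higher and 33.5% lower. The median log2 fold change was 0.23 for the members and 0.04 for all genes. Libraries did not overlap in 113 higher and 30 lower members, where 66.6% of all genes did not overlap. Past 1 on the log2 scale, 15 members were higher and 3 lower, against 13.9% and 5.29% of all genes, and among the 203 members at 10 CPM or more in every group 8 were higher and 2 lower. Among the 9342 genes tested at 10 CPM or more, 521 were higher and 338 lower by that much.

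ZNF697, which averaged under 10 CPM in K562 and is a member largely through its level in K562/IM, had the largest difference between the lines. It was at 8.41, 5.65 and 6.13 CPM in K562 and at 31.5, 31.0 and 29.7 in K562/IM, where every library was above every K562 library (log2 2.19, SE 0.15, edgeR adjusted p = 2.08e-05). ZNF548, which rose under lycorine in K562, was at 14.5, 16.7 and 14.7 CPM in K562/IM (log2 1.89, SE 0.20). K562 is the reference of both comparisons, so that these differences are not independent. ZNF175, a KRAB protein known as a repressor of HIV transcription in macrophages, was at 28.2, 22.2 and 23.3 CPM in K562 and at 69.1, 68.5 and 70.5 in K562/IM (2.82-fold). ZNF333 was higher by 1.65 on the log2 scale, ZNF211 by 1.58 and ZNF518B by 1.29. ZNF518B and ZNF697 have no KRAB motif, and the other 4 of these 6 members do. ZNF333 shares its place with exons of ADGRE2 on the opposite strand, and ZNF333 at 4.32 to 6.52 CPM in K562 is a member through its level in K562/IM.

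On the lower side, ZNF22 (chr10:45000475-45005326) was at 60.5, 57.2 and 51.1 CPM in K562 and at 20.8, 22.2 and 21.3 in K562/IM, a 2.63-fold difference with no overlap (log2 -1.39, SE 0.09, edgeR adjusted p = 1.17e-05). ZNF726 was at 13.7, 13.2 and 14.4 CPM in K562 and at 4.25, 6.05 and 4.38 in K562/IM (log2 -1.49, SE 0.15). ZNF593, the ribosomal maturation factor, was at 36.7, 59.2 and 58.9 CPM in K562 and at 24.0, 23.5 and 21.1 in K562/IM (log2 -1.18, SE 0.18). All 3 were lower in every K562/IM library. ZNF202, which represses genes of lipid metabolism, was lower by 0.70 on the log2 scale (log2 -0.70), with ZNF511 at -0.69 and ZNF587B at -0.51. For ZNF511 and ZNF587B, 29.9% and 27.0% of transcript windows of 75 bases also occur in another gene, so that their counts are uncertain.

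The libraries labelled K562/IM+L differed from K562/IM in both directions. Against K562/IM, 89 members were higher, 68 were lower and 84 were not called by the edgeR test, and of all 13727 genes tested 33.2% were higher and 33.6% lower. Among genes at 10 CPM or more, 32.5% were higher and 36.8% lower. The median log2 fold change was 0.10 for the members and -0.01 for all genes. Libraries did not overlap in 93 higher and 81 lower members, where 73.4% of all genes did not overlap. The share of members called, 65.1%, was close to the 66.8% of all genes, and 69.3% of genes at 10 CPM or more were called. Past 1 on the log2 scale 13 members were higher and 9 lower, against 14.7% and 13.8% of all genes, and among the 203 members at 10 CPM or more in every group 8 were higher and 6 lower. Among the 9342 genes tested at 10 CPM or more, 846 were higher and 937 lower by that much. The sum of the erythroid markers given above moved between the same libraries, and its part in these counts was not tested.

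ZNF431, a KRAB gene of chromosome 19, was at 85.0, 87.9 and 74.8 CPM in K562/IM and at 380, 371 and 480 in the libraries labelled K562/IM+L, 5.05-fold higher with no overlap (log2 2.34, SE 0.13, edgeR adjusted p = 4.70e-06). ZNF226, also a KRAB gene, was at 5.94, 6.23 and 5.61 CPM in K562/IM and at 24.9, 25 and 23.8 in the labelled libraries (log2 2.07, SE 0.09). ZNF226 is a member through its level in those libraries. ZNF273 followed at a log2 fold change of 1.92, ZNF726 at 1.72, ZNF22 at 1.48 and ZNF358 at 1.38. ZNF22 was at 60.6, 57.2 and 59.0 CPM in the labelled libraries and ZNF726 at 15.9, 15.8 and 15.9. The K562 libraries, at 51.1 to 60.5 CPM for ZNF22 and 13.2 to 14.4 CPM for ZNF726, were close to those values. For ZNF358, 18.3% of windows occur in another gene.

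ZNF521 (chr18:25061926-25352190), a factor of early haematopoietic progenitors with 27 fingers, was at 46.3, 44.8 and 48.1 CPM in K562/IM and at 6.02, 6.39 and 7.18 in the libraries labelled K562/IM+L. It was 6.99-fold lower with no overlap (log2 -2.80, SE 0.10, edgeR adjusted p = 7.07e-07). ZNF697 was at 6.88, 3.57 and 5.13 CPM in the labelled libraries (log2 -2.54, SE 0.22), so that all 3 were below its 29.7 to 31.5 CPM in K562/IM. ZNF385A was at 235, 237 and 237 CPM in K562/IM and at 70.9, 79.7 and 61.8 in the labelled libraries (log2 -1.72, SE 0.10). ZNF518B stood at -1.54 on the log2 scale, ZNF595 at -1.17 and ZNF121 at -1.17. Of these 6 members only ZNF595 has a KRAB motif. ZNF521 and ZNF697 had a group mean under 10 CPM, so that their fold changes are not independent of the rule.

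**Figure D2:**
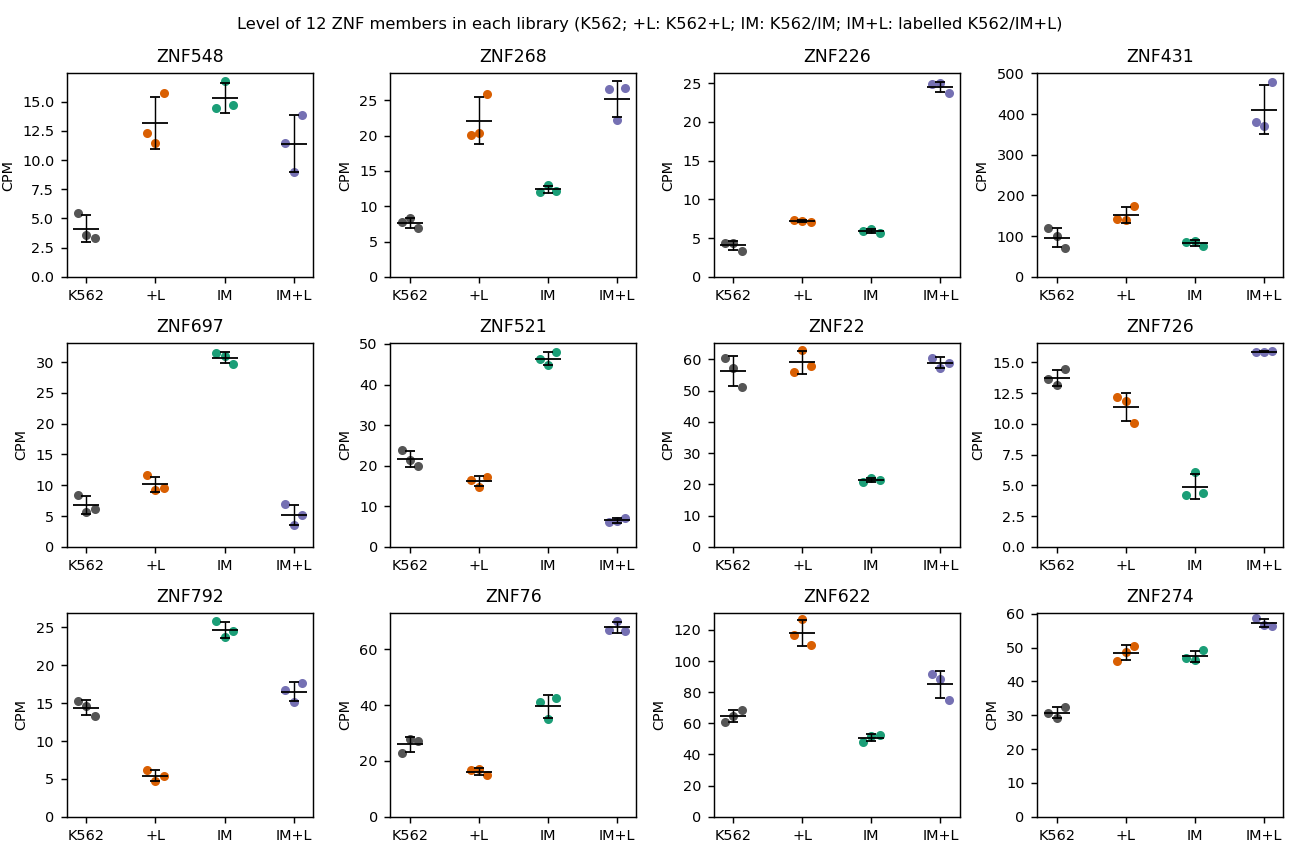
TMM-scaled CPM (y axis, from 0) of 12 ZNF members in each library, as points by group, with the mean ± SD of 3 libraries in black. ZNF431 stands at 371 to 480 CPM in the libraries labelled K562/IM+L, and ZNF521 at 6.02 to 7.18 CPM there.

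Set against K562, 99 members were higher in the libraries labelled K562/IM+L, 30 were lower and 112 were not called. Of all 13307 genes tested, 28.2% were higher and 27.8% lower. Among genes at 10 CPM or more, 23.2% were higher and 35.6% lower. The median log2 fold change was 0.28 for the members and 0.02 for all genes, and 0.39 for the members with a KRAB motif. Libraries did not overlap in 109 higher and 34 lower members, where 63.6% of all genes did not overlap. Past 1 on the log2 scale 27 members were higher and 3 lower, against 14.9% and 8.91% of all genes. Among the 9336 genes tested at 10 CPM or more, 691 were higher and 942 lower by that much. Of the 27, 17 are among the 38 members with a group mean under 10 CPM, and among the other 203 members 10 were higher and 1 lower, with a median of 0.25. Scaling by the upper quartile moved the median of all genes in this comparison to 0.17, and the members' median to 0.43.

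The largest of these differences was in ZNF226, at 4.41, 4.37 and 3.38 CPM in K562 (log2 2.58, SE 0.14, edgeR adjusted p = 1.45e-05). ZNF226 is a member through its level in the labelled libraries, so that its difference is a description. ZNF431 was higher by 2.06 on the log2 scale, ZNF273 by 1.88, ZNF429 by 1.81, ZNF358 by 1.81 and ZNF268 by 1.69. ZNF268 was at 26.6, 22.2 and 26.8 CPM in the labelled libraries, above every K562 library. ZNF521 was lower than in K562 (log2 -1.75), where it was at 23.9, 21.3 and 19.8 CPM. ZNF593 (-1.32), ZNF202 (-1.25), ZNF121 (-0.91), ZNF598 (-0.85) and ZNF770 (-0.82) were also lower on the log2 scale. For ZNF358, ZNF268, ZNF521 and ZNF202, which had a group mean under 10 CPM, the fold change is not independent of the rule. K562 is shared with the first comparisons and K562/IM with the preceding one.

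**Figure D3:**
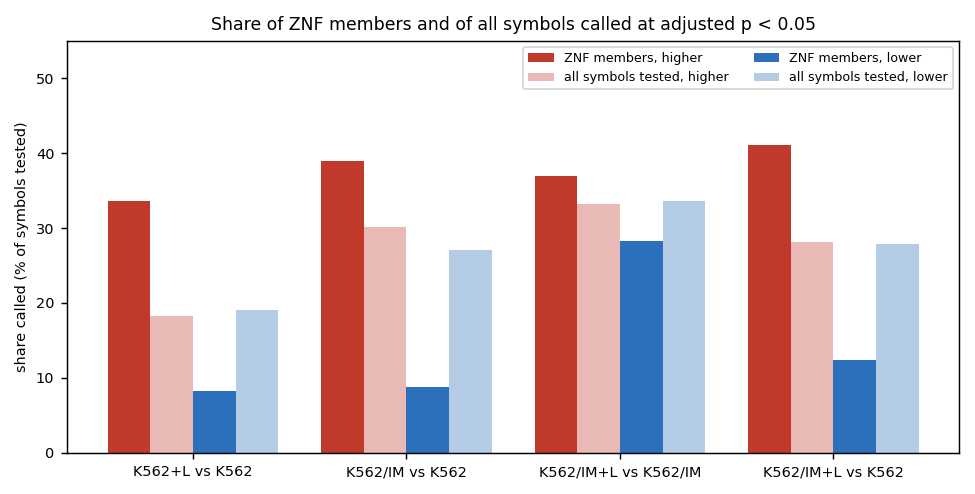
Share of the 241 ZNF members (full colour) and of all genes tested (pale) called higher (red) or lower (blue) at an adjusted p under 0.05 in each of 4 comparisons, y axis in percent from 0. The labelled K562/IM+L against K562/IM has the members' shares nearest to those of all genes.

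Whether lycorine acted alike in both lines, as labelled, was tested by an interaction term in a fit of the 12 libraries. The effect was more positive in K562/IM than in K562 for 50 members, more negative for 85, and not called for 106, where 29.9% of all 13995 genes were positive, 31.7% negative and 61.7% either. Among genes at 10 CPM or more, 31.0% were positive, 38.1% negative and 69.1% either. Past 1 on the log2 scale 13 were positive and 23 negative, against 17.5% and 16.3% of all genes. Among the 9342 genes tested at 10 CPM or more, 1291 were positive and 1514 negative by that much. Scaled by the upper quartile, 63 members were positive and 69 negative, so that the share of positive calls moved from 37.0% to 47.7%. All genes moved in the same direction, from 4191 positive and 4437 negative to 4688 and 3884. Under that scaling the members' median was 0.00 and that of all genes 0.11. ZNF697 had an interaction of -3.16 (log2), ZNF521 of -2.41 and ZNF548 of -2.10. ZNF726 had 1.97 and ZNF431 1.66. ZNF548 was higher in K562+L than in K562, and at 11.4, 8.93 and 13.8 CPM in the labelled libraries it was below all K562/IM libraries. ZNF792 fell in both lines, and ZNF268 rose in both, by different amounts.

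Members with and without a KRAB motif were described apart. With the motif, 42 of 121 were higher and 8 lower in K562+L against K562, 54 and 5 in K562/IM against K562, 46 and 30 in the labelled libraries against K562/IM, and 60 and 12 against K562. Without it, 39 of 119 were higher and 12 lower, 40 and 16, 43 and 37, and 39 and 18 in the same order. Over all genes tested, 18.2% were higher in K562+L against K562 and 37.3% were called in either direction. Higher and lower shares of all genes were 30.1% and 27.1% in K562/IM against K562. They were 33.2% and 33.6% in the labelled libraries against K562/IM, and 28.2% and 27.8% against K562. The 71 KRAB members of chromosome 19 had median log2 fold changes of 0.36, 0.46, 0.22 and 0.54 in these comparisons. The 50 KRAB members on other chromosomes had medians of 0.13, 0.19, 0.09 and 0.25. The differences between these subsets were not tested.

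**Figure D4:**
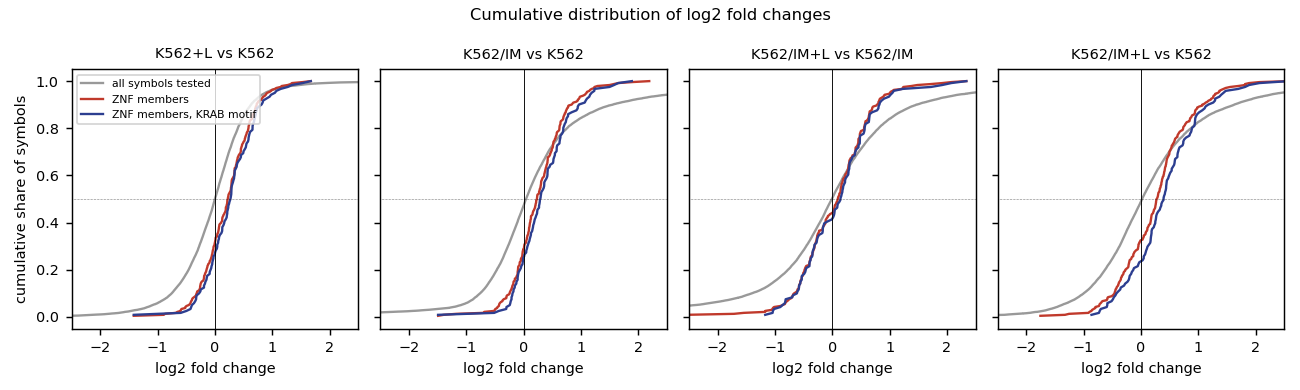
Cumulative share of genes (y axis) by log2 fold change (x axis) in 4 comparisons, for all genes tested (grey), the 241 ZNF members (red) and the 121 with a KRAB motif (blue). The members' curves lie to the right of the grey curve at the middle of the y axis, with medians of 0.22, 0.23, 0.10 and 0.28.

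Along chromosome 19 the members fall into 8 clusters of 5 or more, with neighbouring starts at most 1 Mb apart, which hold 77 of the 94 members. Of all genes tested, 18.2% were higher and 37.3% called in either direction in K562+L against K562, 30.1% were higher and 27.1% lower in K562/IM against K562, 33.2% and 33.6% in the labelled libraries against K562/IM, and 28.2% and 27.8% against K562. The largest cluster runs from ZNF175 to ZNF813 (chr19:51571298-53496255) and holds 23 members, 22 with a KRAB motif. In it 14 members were higher and 0 lower in K562+L against K562, and the middle log2 fold change was 0.55. In K562/IM against K562, 19 were higher and 1 lower, with a median of 0.64. The labelled libraries against K562/IM had 7 higher and 5 lower there, with a median of 0.12. The members ZNF320 and ZNF468 of this cluster are uncertain, since 99% of the windows of ZNF320 also occur in ZNF468.

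The cluster from ZNF430 to ZNF100 (chr19:21020620-21767628), which holds ZNF431, ZNF708 and ZNF429, had 7 members. Of these, 4 were higher in K562+L against K562 and 4 in the labelled libraries against K562/IM, with 0 lower in either. The 6 members from ZNF428 to ZNF180 (chr19:43607219-44500524), with ZNF226 among them, were all higher in the labelled libraries than in untreated K562/IM, at log2 fold changes from 0.35 to 2.07. In K562/IM against K562, 2 of them were higher and 1 lower. In the cluster from ZNF805 to ZNF324 (chr19:57240685-58475436), with 16 members, 9 were higher and 1 lower in K562/IM against K562. There 4 were higher and 6 lower in the labelled libraries against K562/IM. The clusters from ZNF558 to ZNF562, ZNF441 to ZNF791, ZNF146 to ZNF850 and ZNF628 to ZNF444 had 7, 5, 5 and 8 members. In that order, 3, 1, 3 and 1 were higher and 0, 1, 0 and 0 lower in K562+L against K562. In K562/IM against K562, 2, 2, 2 and 0 were higher and 0, 0, 0 and 1 lower. The labelled libraries against K562/IM had 2, 2, 1 and 4 higher and 2, 2, 2 and 0 lower. Clusters were defined by position and are described without a test, and genes of a cluster share sequence.

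**Figure D5:**
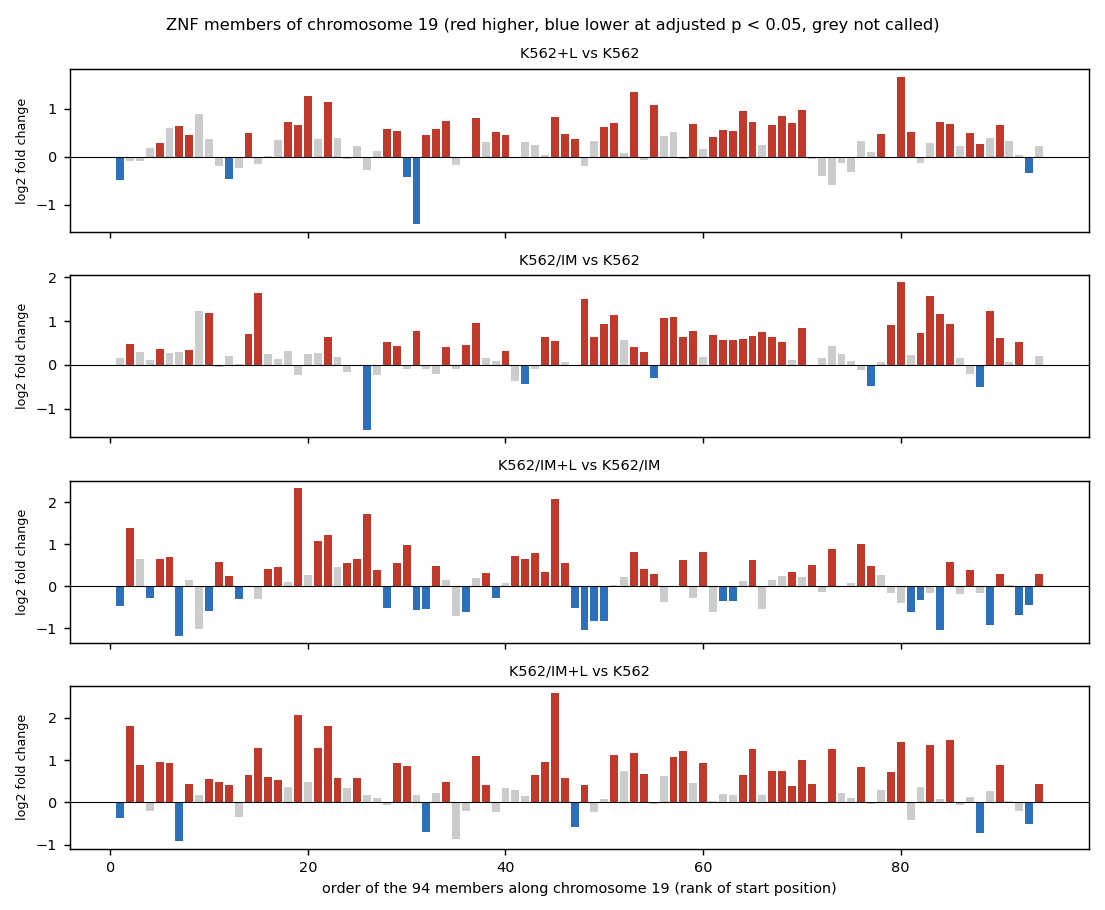
Log2 fold change (y axis) of the 94 ZNF members of chromosome 19 in the order of their starts (x axis, rank), in 4 comparisons, with called members in red (higher) or blue (lower) and the others in grey. Red bars stand side by side right of the middle of the second panel, where the 23 members from ZNF175 to ZNF813 had 19 higher and 1 lower.

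Of the members with known roles at promoters, 10 of the 12 listed were expressed, without ZNF711 and ZNF296. Of these 10, 3 were higher and 1 lower in K562+L against K562, 2 and 1 in K562/IM against K562, 3 and 4 in the labelled libraries against K562/IM, and 2 and 0 against K562. Of all genes tested, 18.2% were higher and 37.3% called in either direction in K562+L against K562, 30.1% were higher and 27.1% lower in K562/IM against K562, 33.2% and 33.6% in the labelled libraries against K562/IM, and 28.2% and 27.8% against K562. ZNF143, an activator that binds many promoters, was at 24.1, 21.7 and 22.0 CPM in K562 and at 29.2, 29.2 and 29.6 in K562+L (log2 0.37, SE 0.09, edgeR adjusted p = 0.012). Its paralog ZNF76 was at 22.9, 27.7 and 27.3 CPM in K562 and at 16.7, 17.0 and 14.8 in K562+L, so that the paralogs moved in opposite directions. The call of ZNF143 was lost without K562 replicate 2 (adjusted p = 0.066) and in the fit blocked by replicate number (adjusted p = 0.060). ZNF76 was at 41, 35 and 42.7 CPM in K562/IM and at 66.9, 70.2 and 66.7 in the labelled libraries, the highest group (log2 0.80 against K562/IM). ZNF24, a SCAN protein, was at 233, 178 and 145 CPM in K562 and at 362, 328 and 415 in K562+L (log2 0.99, SE 0.17, adjusted p = 0.0043). It was lower in the labelled libraries, at 153, 144 and 189 CPM, than in K562/IM, at 240, 257 and 230 (log2 -0.55). ZNF281, which binds G-rich promoters, had log2 fold changes of 0.53 and -0.79 in those comparisons. Its call in K562+L was lost without K562 replicate 2 or 3 and without K562+L replicate 1 or 3, at edgeR adjusted p from 0.063 to 0.095. Of the calls counted above, those of ZNF148 and ZNF217 in the labelled libraries against K562/IM, and of ZNF217 and ZNF335 in K562/IM, were also lost when 1 library was left out, at adjusted p from 0.051 to 0.13. ZNF410, the activator of CHD4, was at 34.7 to 44.1 CPM over all 12 libraries and was not called in any of the 4 comparisons, and 83% of its windows also occur in another gene.

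The members of a further list work in RNA, ribosome or spindle processes. Of these 9, 4 were higher and 1 lower in K562+L against K562, 1 and 4 in K562/IM against K562, 2 and 2 in the labelled libraries against K562/IM, and 2 and 4 against K562. The shares of all genes given for the promoter factors hold here too. ZNF622, a factor of large ribosomal subunit maturation, was at 60.9, 64.6 and 68.3 CPM in K562 and at 117, 127 and 111 in K562+L (log2 0.87, SE 0.09, edgeR adjusted p = 0.00064). It was at 48.0, 51.8 and 52.6 CPM in K562/IM and at 91.6, 88.7 and 75.2 in the labelled libraries (log2 0.77, SE 0.09, adjusted p = 0.00021). Its interaction was -0.13 (SE 0.12, adjusted p = 0.40), so that a difference between the lines was not detected. ZNF593, of the same pathway, was not called in either lycorine comparison, at log2 fold changes of -0.01 and -0.11. ZNF598, the ligase that marks collided ribosomes, was at 132, 162 and 160 CPM in K562 and at 115, 111 and 112 in K562/IM (log2 -0.43, SE 0.09). In the labelled libraries it was at 90.0, 91.5 and 73.3 CPM, below every other library. ZNF207 rose by 0.29 in K562+L, ZNF326, of the DBIRD complex that links transcription and splicing, by 0.45 and the double-stranded RNA binder ZNF346 by 0.55 on the log2 scale. The calls of ZNF207 and ZNF326 in K562+L were each lost without K562 replicate 2, K562+L replicate 1 or K562+L replicate 3, without K562 replicate 3 for ZNF207 and without K562+L replicate 2 for ZNF326, at edgeR adjusted p from 0.054 to 0.14. The call of ZNF207 was also lost with upper-quartile scaling and with all 12 libraries in the fit. Of the calls against K562 in the labelled libraries, those of ZNF326, ZNF622 and ZNF638 were each lost without any 1 of 4 libraries, at adjusted p from 0.051 to 0.11. For ZNF326 and ZNF622 these were replicates 1 and 2 of K562 and of the labelled libraries, and for ZNF638 replicates 2 and 3 of K562 and 1 and 3 of the labelled libraries. ZNF638, which silences unintegrated retroviral DNA with the HUSH complex, was higher in the labelled libraries than in untreated K562/IM (log2 0.35).

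Of 8 listed partners of chromatin and SUMO enzymes, 6 were members, without ZNF462 and ZNF827. In K562+L against K562, 4 of the 6 were higher and 0 lower, and the labelled libraries against K562/IM had 3 higher and 2 lower. In K562/IM against K562, 2 were higher and 0 lower, and against K562 the labelled libraries had 2 higher and 1 lower, with the shares of all genes as for the promoter factors. ZNF292 was at 81.2, 57.1 and 47.0 CPM in K562 and at 114, 98.2 and 136 in K562+L (log2 0.91, SE 0.21, edgeR adjusted p = 0.012). It was at 68.9, 66.7 and 66.8 CPM in K562/IM and at 37.1, 30.9 and 50.2 in the labelled libraries (log2 -0.75), with an interaction of -1.69. ZNF644, a partner of the G9a and GLP methyltransferases, followed the same order, with 0.58 and -0.70 on the log2 scale and an interaction of -1.31. ZNF592 and ZNF687, which form a complex with ZMYND8, were at 0.57 and 0.40 in the labelled libraries against K562/IM. ZNF451, a SUMO ligase, was higher in K562+L (log2 0.45) and in K562/IM (log2 0.49) than in K562. Its call in K562+L was lost without any of 5 libraries (all but K562 replicate 1), at adjusted p from 0.068 to 0.15, and in K562/IM without K562 replicate 2 or K562/IM replicate 2, at 0.064. The call of ZNF644 in K562+L was lost without K562 replicate 2 or any K562+L library, at adjusted p from 0.062 to 0.080. The calls of ZNF512B in the labelled libraries against K562/IM and of ZNF292 against K562 were also lost when 1 library was left out, at adjusted p from 0.057 to 0.13.

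Of the 9 listed KRAB or SCAN proteins 7 were members, and ZNF91 and ZNF93, which repress SVA and L1 elements, were not. Of these 7, 2 were higher and 0 lower in K562+L against K562, and 4 were higher and 1 lower in each of the other 3 comparisons, with the shares of all genes as for the promoter factors. ZNF274, which brings SETDB1 to the ends of ZNF genes, was at 30.5, 29.3 and 32.4 CPM in K562, at 46.0, 48.8 and 50.4 in K562+L, at 46.9, 46.2 and 49.2 in K562/IM and at 58.7, 56.7 and 56.5 in the labelled libraries. K562 was below and the labelled libraries above all others, with log2 fold changes of 0.65 (K562+L against K562), 0.62 (K562/IM against K562) and 0.29 (labelled against K562/IM). ZNF10, the prototype of the KRAB domain, was higher in the labelled libraries than in untreated K562/IM (log2 0.86), as were ZNF224 (log2 0.35, not called with all 12 libraries in 1 fit, at an edgeR adjusted p of 0.056) and ZNF268 (log2 1.05). ZNF445, which guards imprinted loci, was higher in K562/IM than in K562 (log2 0.69). ZNF263 was at 31.8 to 36.5 CPM in all 12 libraries and was not called in any of the 4 comparisons. In all, 23 members were not called in any of them.

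The partners through which KRAB proteins act were counted from a list. Of 25 partner genes, 8 were higher and 3 lower in K562+L against K562, 6 and 8 in K562/IM against K562, 3 and 12 in the labelled libraries against K562/IM, and 4 and 12 against K562. The shares of all genes were 18.2% higher and 37.3% in either direction, 30.1% and 27.1%, 33.2% and 33.6%, and 28.2% and 27.8% in the same order. TRIM28, the corepressor that binds the KRAB domain, was at 643 ± 77 CPM (SD, n = 3) in K562 and at 1038 ± 77 in K562+L (log2 0.69, SE 0.10, edgeR adjusted p = 0.0026). SMARCAD1 (log2 0.71) and ATRX (log2 1.05), both chromatin remodellers, also rose. RESF1 was higher in K562/IM than in K562 (log2 1.11). In the labelled libraries against K562/IM, CBX5, which is HP1 alpha, was lower (log2 -1.22), as were UHRF1 (log2 -1.11) and CHD4 (log2 -1.04). SETDB1 was not called in either lycorine comparison (log2 0.00 and 0.06).

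Other zinc finger genes were counted in the same fits. Of the 143 ZNF genes at 1 to under 10 CPM, 30 were higher and 15 lower in K562+L against K562, 79 and 16 in K562/IM against K562, 66 and 29 in the labelled libraries against K562/IM, and 85 and 9 against K562. For the ZBTB genes, which carry a BTB domain, 10 of 39 tested were higher and 3 lower in K562+L against K562, 15 and 1 of 38 in K562/IM against K562, 6 and 16 of 39 in the labelled libraries against K562/IM, and 6 and 5 of 39 against K562. The ZFP, ZSCAN and ZKSCAN genes had 12 higher and 1 lower of 33, 18 and 1 of 34, 7 and 7 of 35, and 14 and 1 of 35 in the same order. Of all genes tested, 18.2% were higher and 37.3% called in either direction in K562+L against K562, 30.1% were higher and 27.1% lower in K562/IM against K562, 33.2% and 33.6% in the labelled libraries against K562/IM, and 28.2% and 27.8% against K562. The median over all genes at 10 CPM or more was 0.02, -0.06, -0.05 and -0.13 in the 4 comparisons, where the members' medians were 0.22, 0.23, 0.10 and 0.28.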

How the data were processed

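RNA enriched for polyadenylated transcripts was sequenced in 12 libraries, 3 per group, grouped by the cell line and treatment in the sample labels. The authors deposited whole-number counts per gene symbol, without normalization, for 19447 symbols. The submitters' processing notes name FastQC, STAR, StringTie, DESeq2 and hg38, with no versions or roles, and the annotation is not given in the sources used here. Of the 23289 counts from 1 to 25, 67.9% equal a multiple of 4 or exceed it by 1, where evenly spread ones would give 52%. Low counts need not be evenly spread, and 1 itself is a match, so that this excess cannot show a unit of 4 counts. Counting noise may still be larger than the totals of 75093844 to 107344598 give, which was not tested. No 2 libraries of a group agreed within sampling noise.

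Counts were tested with R 4.3.3 and edgeR 4.0.16. The libraries of each pair of groups were filtered with filterByExpr (minimum count 10), scaled by TMM and fitted with the quasi-likelihood test, with Benjamini-Hochberg adjustment over all genes and a threshold of 0.05. The interaction used all 12 libraries. On simulated counts, K562+L against K562 recovered 185 of 200 changed genes with 13 false calls among 12762 genes, and the interaction 146 of 200 with 8 among 13763. Only these 200 genes differed between groups, each by at least 1 on the log2 scale. Smaller changes, which most called members had, and changes in a large share of genes were not simulated. With 3 libraries a side, the smallest p of an exact permutation test would be 0.1.

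The members and lists were chosen with earlier results of these data known. The genes named are the 6 members with the largest called fold change and no overlap in each direction of each comparison, the 5 highest per kilobase, 3 on each side of the level threshold, listed members of known role, and up to 3 partner genes per comparison. SETDB1, ZNF788P, ZNF468, ZNF320 and the members of wide spread were named after their values were seen. Positions, transcript lengths and translated coding sequences came from GENCODE 29 (GRCh38), of the build in the notes, and 19043 symbols matched. A first KRAB pattern found 106 members and missed ZNF10, so a wider one was used, which found 121. Windows of 75 bases were compared between genes: 24 members share over 10% of theirs and 66 have exons of another gene on the opposite strand, so their counts are uncertain. Promoters came from RefSeq (GRCh38.p14), and motif letters were chosen after the data were seen. Alternatives covered DESeq2 1.42.0, scaling, filters, thresholds, all libraries in 1 fit, the replicate number as a block, counts divided by 4, and each library left out. Chosen after the data were seen were the members picked without the labelled K562/IM+L libraries, those at 10 CPM or more in every group as a base for the counts of calls, and those with little shared sequence. Protein sequences were not used here.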

Additional observations from a re-analysis of the deposited data

Results flagged for a closer look

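The lycorine effect differed between the lines, as labelled, in 135 members by the interaction test of edgeR's quasi-likelihood fit over 12 libraries. Of all genes, 61.7% had such a difference, and of genes at 10 CPM or more 69.1%. Of the 58 members named for a fold change or a listed role, 41 were among the 135. The value given is the log2 effect in K562/IM minus that in K562.

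Among the members named for a fold change it was negative for ZNF697 (-3.16), ZNF521 (-2.41), ZNF548 (-2.10), ZNF518B (-1.94), ZNF121 (-1.84), ZNF708 (-1.02), ZNF770 (-0.88), ZNF175 (-0.87), ZNF385A (-0.87), ZNF595 (-0.87), ZNF75A (-0.73), ZNF616 (-0.56), ZNF268 (-0.50), ZNF598 (-0.48), ZNF211 (-0.47) and ZNF587B (-0.45). It was positive for ZNF726 (1.97), ZNF431 (1.66), ZNF273 (1.61), ZNF76 (1.46), ZNF358 (1.45), ZNF32 (1.45), ZNF22 (1.39), ZNF226 (1.22), ZNF792 (0.84), ZNF511 (0.70) and ZNF706 (0.54).

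Among those named for a role alone it was negative for ZNF292 (-1.69), ZNF24 (-1.57), ZNF281 (-1.34), ZNF644 (-1.31), ZNF326 (-0.95), ZNF148 (-0.84), ZNF346 (-0.70), ZNF207 (-0.62), ZNF451 (-0.59), ZNF274 (-0.38) and ZNF143 (-0.30), and positive for ZNF692 (0.69), ZNF10 (0.59) and ZNF335 (0.35). Members named for a fold change were chosen on libraries that enter the interaction, so that their differences are descriptions. All rest on the label of the K562/IM+L libraries, and no group has over 3 libraries, so single libraries were not tested as outlying.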

How the results depend on the processing

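The 48 largest fold changes kept their direction and call with another test, scaling, filter, fit, block or count scale, and with each library left out. With the 58 calls of the members of listed role, 1484 values were computed, of which 0 reversed and 73 lost the call, 55 of them with a library left out. The counts moved with the threshold. With a log2 fold change over 1 required as well, the members higher and lower were 8 and 1 in K562+L against K562, 15 and 3 in K562/IM against K562, 13 and 9 in the labelled libraries against K562/IM, 27 and 3 against K562, and 13 and 23 in the interaction, where 14.7% and 13.8% of all genes passed in the labelled libraries against K562/IM and 17.5% and 16.3% in the interaction. At an adjusted p under 0.01 they were 38 higher and 10 lower in K562+L, 43 lower in the labelled libraries against K562/IM, 64 higher against K562 and 32 positive in the interaction. The shares of all genes at that threshold are not given here. Over the 157 members with little shared or opposite-strand sequence, which are fewer, 58 were higher in K562/IM. In the labelled libraries 57 were higher and 45 lower against K562/IM and 65 higher against K562, and 30 were positive in the interaction. As shares these were near those of the 241 members. They were 36.9% against 39.0% higher in K562/IM, and 36.3% and 28.7% against 36.9% and 28.2% in the labelled libraries against K562/IM. Against K562 they were 41.4% and 41.1%, and in the interaction 19.1% and 20.7%. With each library left out, the ranges were 48 to 104 higher and 11 to 21 lower in K562+L, 78 to 116 and 15 to 31 in K562/IM, 73 to 92 and 51 to 83 in the labelled libraries against K562/IM, 75 to 104 and 21 to 35 against K562, and 41 to 52 and 76 to 96 in the interaction. With the replicate number as a block, 10 members were lower in K562+L, and no other count moved by over 1.5 times. The numbers were not taken as pairing the libraries, since the deviations of same-numbered libraries correlated from -0.57 to 0.14 with no pair of groups above 0.1 in all 3. Where no construction of the alternative shows it, the cause was not tested. A gene at 10 CPM has about 751 counts in the smallest library.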

Other observations

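In 8 members the libraries of a group differed by over 3-fold, in 11 of 964 pairs of member and group (1.14%, against 0.677% of all genes at 10 CPM or more), and these values were looked for after the data were seen. ZNF562, a KRAB gene, was at 21.6, 55.5 and 15.6 CPM in K562, at 29.4, 94 and 94.4 in K562/IM and at 42.8, 12.4 and 50.7 in the libraries labelled K562/IM+L. ZNF529 was at 36.2, 7.06 and 36.2 CPM in K562+L and at 14.5, 3.53 and 32.3 in the labelled libraries. ZNF184 was at 36.2, 10.0 and 33.6 CPM in K562/IM, where the median member varied by 5.07%. In K562, ZNF621 was at 58.2, 48.1 and 8.18 CPM and ZNF106 at 134, 101 and 24.7. ZNF28 and ZNF160, which both lie in the cluster from ZNF175 to ZNF813, were both low in replicate 1 of the labelled libraries, at 9.35 against 27.3 and 35.3 CPM, and at 6.64 against 24.3 and 27.8. ZNF600 was low in replicate 2 of K562+L, at 10.7 against 27.7 and 33.8 CPM. The lowest library recurred within a group, with K562 replicate 3 for ZNF106, ZNF621 and ZNF562, K562+L replicate 2 for ZNF529 and ZNF600, and labelled replicate 2 for ZNF562 and ZNF529. ZNF562, ZNF529 and ZNF184 were not called in any of the 4 comparisons.

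A pseudogene symbol, ZNF788P, is also a member by the rule, at 12.9 to 18.8 CPM, and lies opposite exons of ZNF20.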
